A study of Homo sapiens with 24 samples.

Results

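SLC25A51 knockdown under MPP+ was read in 6 of the 24 libraries of the series, 3 of SH-SY5Y cells with a hairpin against SLC25A51 (shMCART1) and 3 with a scrambled hairpin (shScramble), both kept for 24 h in 0.5 mM MPP+. SH-SY5Y is a human neuroblastoma line used as a model of dopamine neurons, MCART1 is the older symbol of SLC25A51, and MPP+ (1-methyl-4-phenylpyridinium) is a toxin that poisons respiratory complex I. Set beside them were 6 libraries with the same toxin in which SLC25A51 was overexpressed (oeMCART1) or a control construct carried (oeNC), and 6 untreated libraries with the same 2 hairpins. Below, shMCART1 and shScramble without further words mean the MPP+-treated libraries. Every group of the MPP+ table carried a construct and the toxin, so none is the parental line. The labels give bone marrow as the tissue, name HEK293T, a human embryonic kidney line, beside SH-SY5Y in the culture conditions, and do not say whether a line was 1 clone or a pool, which hairpin sequence was used, or how replicates were grown. The spread behind each p-value is therefore that of the deposited samples, which may be technical in part. The members are the 14142 genes at 1 TPM (the deposited unit, transcript abundance scaled to a fixed total per library) or more in at least 3 of the 6 libraries, of 36741 genes with values, and 22599 genes stayed under that limit. Differences are on the log2(TPM + 1) scale, shMCART1 minus shScramble, and a gene was called at a Benjamini-Hochberg adjusted p under 0.05 over all genes tested with limma.

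SLC25A51 is the carrier that brings NAD+ from the cytosol into the mitochondrial matrix, where it accepts electrons from fuel oxidation and passes them as NADH to complex I. MPP+ blocks complex I, the enzyme that takes those electrons from NADH. Cells with stressed mitochondria switch on the integrated stress response, in which the transcription factor ATF4 and its C/EBP partners bind response elements at genes of amino acid uptake, amino acid synthesis and tRNA charging. Immediate early genes answer kinase signals within minutes and include JUN, the FOS family and ATF3, whose proteins pair into the AP-1 factor.

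Promoter windows are shown for genes of the 2 groups that stood apart in opposite directions, the amino acid response genes that were lower in shMCART1 and the AP-1 genes that were higher. Each window runs from 250 bases before to 50 bases after a RefSeq transcript start on GRCh38.p14, 5′ to 3′ along the gene, and where a gene has several starts the first listed was used. The first set shows the 4 named amino acid response genes with the smallest p whose window holds TGATGNAA on either strand, the core of the C/EBP-ATF response element, with the match in capitals.
ASNS (chr7:97872359-97872658, minus strand): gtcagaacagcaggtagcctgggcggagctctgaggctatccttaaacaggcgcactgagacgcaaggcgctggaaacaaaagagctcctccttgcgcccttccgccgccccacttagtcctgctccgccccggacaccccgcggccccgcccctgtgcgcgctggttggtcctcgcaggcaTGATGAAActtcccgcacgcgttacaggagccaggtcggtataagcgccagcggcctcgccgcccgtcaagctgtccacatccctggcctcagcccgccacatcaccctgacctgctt
SLC3A2 (chr11:62881449-62881748, plus strand): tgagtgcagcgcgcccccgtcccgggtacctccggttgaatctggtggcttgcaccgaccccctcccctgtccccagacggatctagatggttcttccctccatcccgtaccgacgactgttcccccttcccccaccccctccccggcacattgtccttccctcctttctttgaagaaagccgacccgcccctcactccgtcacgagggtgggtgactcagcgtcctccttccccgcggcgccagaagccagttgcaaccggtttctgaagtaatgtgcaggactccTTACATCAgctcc
SLC7A1 (chr13:29595639-29595938, minus strand): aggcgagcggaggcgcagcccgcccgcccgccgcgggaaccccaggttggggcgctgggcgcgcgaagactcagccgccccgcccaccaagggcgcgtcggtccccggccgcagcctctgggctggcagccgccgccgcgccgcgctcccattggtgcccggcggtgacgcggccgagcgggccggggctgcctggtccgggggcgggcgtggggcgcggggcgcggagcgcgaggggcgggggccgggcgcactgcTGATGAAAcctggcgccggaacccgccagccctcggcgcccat
CHAC1 (chr15:40953221-40953520, plus strand): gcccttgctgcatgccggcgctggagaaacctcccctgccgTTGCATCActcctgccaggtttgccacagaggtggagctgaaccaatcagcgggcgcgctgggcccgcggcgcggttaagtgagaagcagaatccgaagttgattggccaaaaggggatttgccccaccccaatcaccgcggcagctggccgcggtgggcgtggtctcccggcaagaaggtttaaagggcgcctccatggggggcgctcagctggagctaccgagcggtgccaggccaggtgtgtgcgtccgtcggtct

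The second set shows the 4 named immediate early and AP-1 genes with the smallest p whose window holds TGANNTCA on either strand, the letters of a cyclic AMP or AP-1 type element with 2 free bases at its centre, again with the match in capitals. The motifs were searched apart, and 170 of the promoter windows held both. The window of ATF3, a gene that rose, is among them and also holds TGATGNAA, left in small letters below.
JUND (chr19:18281573-18281872, minus strand): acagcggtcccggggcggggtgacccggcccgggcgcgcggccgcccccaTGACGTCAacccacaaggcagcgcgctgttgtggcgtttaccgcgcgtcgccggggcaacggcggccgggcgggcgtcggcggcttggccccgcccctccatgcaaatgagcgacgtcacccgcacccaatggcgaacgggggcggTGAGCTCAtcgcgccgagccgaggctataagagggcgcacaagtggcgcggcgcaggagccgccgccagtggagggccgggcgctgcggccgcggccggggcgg
JUN (chr1:58783998-58784297, minus strand): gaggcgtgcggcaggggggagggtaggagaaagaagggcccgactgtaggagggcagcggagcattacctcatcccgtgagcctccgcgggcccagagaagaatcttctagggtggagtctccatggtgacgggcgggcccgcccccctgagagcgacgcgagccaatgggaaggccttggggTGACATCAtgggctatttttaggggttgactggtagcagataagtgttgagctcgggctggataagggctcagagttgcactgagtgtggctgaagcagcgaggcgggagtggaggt
MAFF (chr22:38201744-38202043, plus strand): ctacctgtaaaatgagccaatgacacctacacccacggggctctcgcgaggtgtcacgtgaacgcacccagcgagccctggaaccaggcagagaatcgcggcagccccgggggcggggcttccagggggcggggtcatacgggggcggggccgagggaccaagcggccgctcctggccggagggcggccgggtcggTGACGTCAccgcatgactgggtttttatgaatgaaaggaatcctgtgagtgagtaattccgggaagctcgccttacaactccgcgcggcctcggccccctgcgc
ATF3 (chr1:212565157-212565456, plus strand): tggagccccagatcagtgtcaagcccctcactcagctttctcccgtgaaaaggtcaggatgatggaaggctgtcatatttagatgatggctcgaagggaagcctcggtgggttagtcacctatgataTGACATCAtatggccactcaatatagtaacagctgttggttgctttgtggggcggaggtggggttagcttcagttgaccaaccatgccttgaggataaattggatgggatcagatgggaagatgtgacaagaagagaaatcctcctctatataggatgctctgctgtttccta

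Of 27305 promoter windows 3.67% held TGATGNAA and 11.8% held TGANNTCA, and of the 10318 windows of tested genes 1.57% and 8.32% did. TGATGNAA stood in 6 of the 16 windows of cytosolic aminoacyl-tRNA synthetases (AARS1, CARS1, IARS1, MARS1, NARS1 and TARS1) and in 3 of 14 of amino acid transporters. In the other lists behind the first set it stood in 2 of 15 windows of stress response factors and feedback genes and 1 of 4 of secreted factors. It stood in 2 of 9 of serine, asparagine and proline synthesis and 1 of 11 of folate enzymes. TGANNTCA stood in 5 of the 11 windows of AP-1 genes and in 3 of 15 of immediate early genes outside AP-1. It stood in 4 of 10 of MAP kinase phosphatases and feedback genes. A match says that these letters are in the window, not that a factor binds there.

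Within groups, the replicates of the MPP+ table correlated at 0.987 to 0.990 over log2 values. Between 13197 and 14306 genes reached 1 TPM per library, and the depth is unknown because TPM keep none. Of the defining markers of adrenergic neuroblastoma, the lineage of SH-SY5Y, TH was listed at 0 in all 6 libraries, STMN2 stayed under 1 TPM, and 7 of 14 passed the filter, of which GATA2 and GAP43 rose and CHGA and CHGB fell. Their summed level was 47.0 to 50.1 TPM in shMCART1 and 39.6 to 43.6 TPM in shScramble. The summed level of 12 fibroblast markers was 43.6 to 46.1 TPM in shMCART1 and 38.9 to 41.6 TPM in shScramble, with THY1 at 0 and 7 markers below 1 TPM throughout. Blood markers summed to 19.4 to 25.6 TPM in shMCART1 and 20.4 to 21.9 TPM in shScramble with PTPRC, CD3E and HBB at 0, and kidney epithelium markers to 7.25 to 8.01 TPM in shMCART1 and 5.26 to 7.74 TPM in shScramble with PAX8 and CDH16 at 0. The part of these small shifts in the results was not tested. In bulk RNA, fewer cells with a transcript and less of it per cell cannot be told apart.

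SLC25A51 was measured first, as a check of the labels. The gene (ENSG00000122696) lies on chromosome 9, 37879400 to 37904353, minus strand in GENCODE 29 for GRCh38, and it had 5.12, 5.82 and 5.06 TPM in shMCART1, against 6.87, 8.38 and 8.47 TPM in shScramble. The groups did not overlap, and the mean in shMCART1 was 67.5% of that in shScramble, so the knockdown was partial. The log2 difference was -0.49 ± 0.09 (SE, adjusted p = 0.00213), with an adjusted p of up to 0.0119 when each library was left out, while exact permutation of the TPM (two-sided) gave p = 0.1, which no split of 6 libraries could undercut. Its near-identical retrocopy SLC25A52 was listed at 0 in all 6 libraries. In the oe libraries SLC25A51 averaged 936 TPM in oeMCART1 and 8.49 TPM in oeNC.

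Many genes differed between shMCART1 and shScramble by small amounts. Knockdown and other differences between the hairpin lines or their libraries cannot be told apart in this design. A total of 4963 genes passed (35.1% of the 14142), with 1640 called higher in shMCART1 (11.6%) and 3323 called lower (23.5%), and the groups did not overlap for 50.9% of genes tested, 18.5% higher and 32.4% lower. Without shScramble replicate 3 the count of lower genes was 2211. The median log2 difference of all genes was -0.07. Scaling the libraries by the median of ratios evened the split to 2549 higher and 2337 lower, and quantile normalization to 2435 higher and 2553 lower. The difference followed the GC content of the transcript, known for 94.4% of genes tested, with a Spearman correlation of 0.477 across genes, which share the same 6 libraries. In the decile of genes poorest in GC (28.6 to 38.8%) 1.57% were called higher and 43.2% lower, and in the richest decile (61.7 to 76.8%) 27.2% were called higher and 4.57% lower. With each library's GC trend removed, 78.5% of the genes called higher and 56.2% of those called lower were called again in the same direction.

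**Figure D1:**
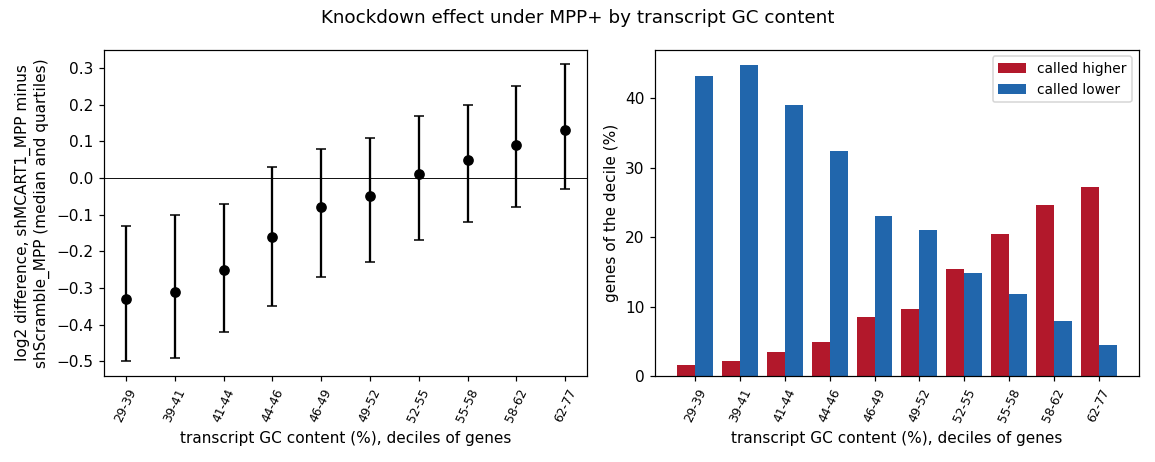
Knockdown effect under MPP+ by transcript GC content in 10 bins of about equal gene number. The left panel gives the median and quartiles of the log2 difference (shMCART1 minus shScramble), which runs from -0.33 in the lowest bin to 0.13 in the highest, and the right panel the percentage of genes called higher (red) and lower (blue).

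The largest rise was that of ADAMTS1, a secreted metalloprotease that cuts proteoglycans, which had 134, 143 and 129 TPM in shMCART1, against 34.5, 30.2 and 29.1 TPM in shScramble, a log2 difference of 2.08 ± 0.15 (SE, adjusted p = 1.51e-05). RHOB, a small GTPase of endosomes and actin, had 329.9, 291 and 256 TPM in shMCART1, against 89.3, 66.5 and 58.0 TPM in shScramble, a difference of 2.04 ± 0.20 (SE, adjusted p = 7.49e-05). In both genes the lowest shMCART1 library lay far above the highest shScramble library. CCN1, a matrix protein that signals through integrins, had 130.4, 109.8 and 82.9 TPM in shMCART1, against 35.1, 31.2 and 28.7 TPM in shScramble (1.71, adjusted p = 0.000486). SPARC, a matrix glycoprotein, had 18.6, 21.1 and 13.1 TPM in shMCART1, against 7.55, 5.32 and 4.28 TPM in shScramble (1.47). The kinase PIM1 (1.25), the circadian repressor BHLHE40 (1.12), the polyamine acetylase SAT1 (1.11), gamma-synuclein SNCG (1.10), the RNA gene SBNO1-AS1 (1.17) and the histone H2AC18 (1.09) also stood among the 15 leading rises, the last with near-identical copies and so uncertain. For 8 of the 15 leading rises (RHOB, CCN1, DUSP1, JUN, ATF3, MAFF, INSIG1 and SAT1) the library numbered 1 was the highest in shMCART1, in shScramble and in oeNC alike.

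Among the leading falls, ranked under the same limits, was MAT2A, the enzyme that makes S-adenosylmethionine. It had 18.4, 20.2 and 25.1 TPM in shMCART1, against 60.2, 74.3 and 80.4 TPM in shScramble, a difference of -1.71 ± 0.19 (SE, adjusted p = 0.000121). MTHFS, which returns folinic acid to the folate pool, had 7.50, 10.3 and 9.04 TPM in shMCART1, against 25.6, 29.5 and 28.6 TPM in shScramble (-1.55 ± 0.11 (SE, adjusted p = 1.51e-05)). The shMCART1 mean was 29.7% of the shScramble mean for MAT2A and 32.1% for MTHFS, with no overlap. The nuclear receptor coactivator NCOA5 had 5.68, 5.71 and 7.01 TPM in shMCART1, against 17.1, 18.8 and 20.7 TPM in shScramble (-1.48, adjusted p = 1.68e-05), and EIF4EBP2, a brake on cap-dependent translation, had 6.76, 6.50 and 8.02 TPM in shMCART1, against 19.8, 22.0 and 21.9 TPM in shScramble (-1.46, adjusted p = 6.84e-06). These 4 genes kept their calls in every fit without 1 library. Of all 30 leading genes, 25 did. PLEKHG2, an exchange factor of small GTPases, had 7.84, 8.16 and 7.22 TPM in shMCART1, against 55.2, 33.3 and 8.57 TPM in shScramble, so 2 shScramble libraries carried the difference, and without shScramble replicate 2 its adjusted p was 0.0615. TMEM135 had 2.26, 3.13 and 2.57 TPM in shMCART1, against 4.99, 4.75 and 27.0 TPM in shScramble, with replicate 3 of shScramble far above the rest. PIK3C2A had 0.430, 0.540 and 0.720 TPM in shMCART1, against 1.20, 12.6 and 1.39 TPM in shScramble, with replicate 2 of shScramble far above. Its shScramble mean, 5.07 TPM, reached the 5 TPM asked of leading genes only through that library. Over the alternatives the difference ranged from -1.83 to -0.69 for TMEM135 and from -2.16 to -0.56 for PIK3C2A. The calls of both ended without any 1 of the shMCART1 libraries, with adjusted p values of 0.062 to 0.0926 for TMEM135 and 0.0771 to 0.117 for PIK3C2A. ZNF778 (adjusted p = 0.0475) lost its call without any shMCART1 library or without shScramble replicates 2 or 3 (0.0685 to 0.178). With GC trends removed, as described above, the calls of TMEM135, PIK3C2A and ZNF778 ended too (adjusted p = 0.0855, 0.126 and 0.0694). The histone H4C8 lost it without shMCART1 replicate 2 (0.0564) or shScramble replicate 3 (0.0569), and like H4C1 has near-identical copies. ERI2 had 2.81, 4.03 and 4.75 TPM in shMCART1, against 7.70, 29.2 and 10.6 TPM in shScramble (-1.60), with replicate 2 of shScramble far above the rest, and without that library its difference was -1.07, still called. The RNA genes ATP6V0E2-AS1 (-1.42), ACAD9-DT (-1.40) and SMIM2-AS1 (-1.28), and GDF15 closed the 15 leading falls. The libraries were strand-specific per the labels, which do not say whether counting used the strand, so reads of antisense genes are uncertain.

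**Figure D2:**
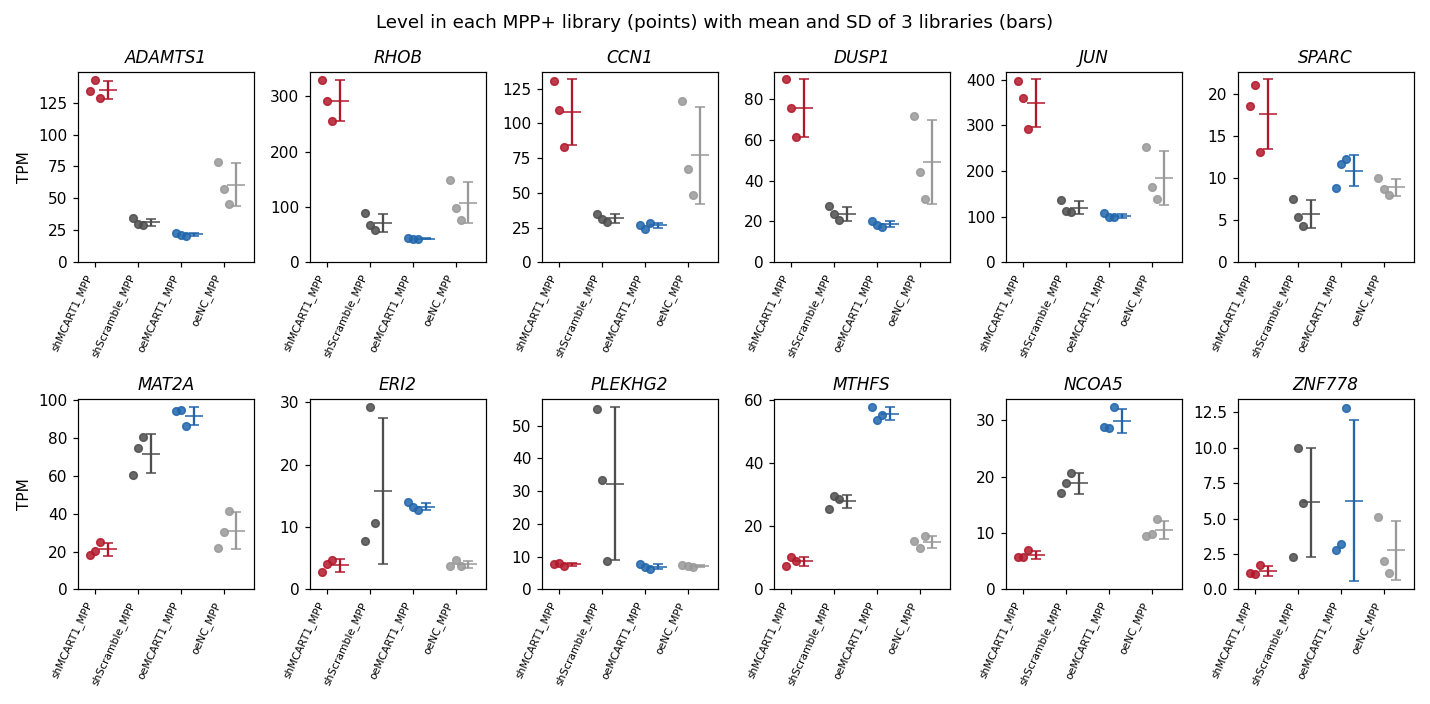
TPM of the 6 leading genes with the largest rises (upper row) and the 6 leading genes with the largest falls outside the histones (lower row), in the 3 libraries of each MPP+ group (points) with mean and SD (bars), each panel on its own axis from 0. ADAMTS1 and RHOB separate shMCART1 from all other groups, while PLEKHG2 rests on 2 high shScramble libraries.

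Of 26 immediate early genes outside AP-1 on the list, 22 passed the filter, and 11 rose and 1 fell, with a median difference of 0.42 against -0.07 for all genes. KLF6, a zinc-finger factor of injury responses, had 19.0, 18.1 and 16.4 TPM in shMCART1, against 9.48, 9.28 and 8.86 TPM in shScramble, a difference of 0.88 ± 0.14 (SE, adjusted p = 0.000754). IER3 (0.89), the nuclear receptor NR4A1 (0.73), ZFP36, which destabilises short-lived mRNAs (0.72), IER2 (0.56), the kinase SGK1 (0.52) and GADD45B (0.49) rose as well. EGR1, the usual marker of this class, stayed near the filter at 1.24 TPM in shMCART1 against 1.05 TPM in shScramble and was not called. SRF, which drives many of these genes, was the member that fell (-0.18, adjusted p = 0.0406), and its call ended in each fit without 1 library except that without shMCART1 replicate 3, with an adjusted p of up to 0.147, and under median-of-ratios scaling (-0.08, adjusted p = 0.361).

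Of 17 AP-1 genes 15 were tested, 8 rose and 2 fell, with a median of 0.31. JUN had 397, 359.6 and 293 TPM in shMCART1, against 136, 113 and 109.9 TPM in shScramble, a difference of 1.54 ± 0.18 (SE, adjusted p = 0.000159). ATF3, both an AP-1 member and a product of the stress response, had 404, 371 and 316 TPM in shMCART1, against 181, 149 and 139 TPM in shScramble (1.21 ± 0.18 (SE, adjusted p = 0.000492)). Neither overlapped between groups. JUND had 47.7, 53.2 and 44.0 TPM in shMCART1, against 28.4, 23.3 and 27.3 TPM in shScramble (0.85) and the small MAF protein MAFF had 6.26, 6.16 and 5.83 TPM in shMCART1, against 2.52, 2.12 and 2.10 TPM in shScramble (1.13). JDP2, which represses AP-1 sites, fell (-0.84, adjusted p = 0.000499). FOS was scarce, at 1.80, 2.16 and 1.81 TPM in shMCART1, against 1.27, 1.01 and 1.05 TPM in shScramble, and its call (0.47, adjusted p = 0.0247) ended without shMCART1 replicate 2, shScramble replicate 2 or shScramble replicate 3 (adjusted p = 0.0888, 0.0782 and 0.0719).

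Of 17 MAP kinase phosphatases and feedback inhibitors 12 were tested, 5 rose and 1 fell, with a median of 0.29. DUSP1, which dephosphorylates JNK and p38, had 89.5, 75.6 and 61.1 TPM in shMCART1, against 27.4, 23.6 and 20.5 TPM in shScramble, a difference of 1.61 ± 0.23 (SE, adjusted p = 0.000499). DUSP8 (0.92), also a JNK phosphatase, DUSP10 (0.62) and DUSP5, which acts on ERK (0.57), rose as well, and DUSP14 fell (-0.31). Genes of the YAP, actin and matrix response moved both ways, with 8 of 18 higher and 4 lower. ANKRD1, a classic YAP target, had 4.56, 4.32 and 3.74 TPM in shMCART1, against 1.87, 1.10 and 0.930 TPM in shScramble (1.20 ± 0.22 (SE, adjusted p = 0.00175)). Cytoplasmic gamma-actin ACTG1 rose (0.62) and smooth muscle actin ACTA2 (-0.74) and the LIM protein AJUBA (-0.50) fell, while CCN2, the close relative of CCN1, was not called at 3.42 TPM in shMCART1 against 2.80 TPM in shScramble. Among 28 matrix and mesenchymal state genes 23 were tested, 11 rose and 1 fell, with a median of 0.23. The collagens COL3A1 (0.80) and COL4A2 (0.54) and the gelatinase MMP2 (0.74) rose, and fibronectin FN1, at 20.0 TPM in shMCART1 against 20.7 TPM in shScramble, was not called. COL3A1, at 1.70 TPM in shMCART1 against 0.550 TPM in shScramble, is also the 1 fibroblast marker of the 4 tested that was called.

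Transcription factors and feedback genes of the integrated stress response were mostly lower in shMCART1, and ATF4 was higher. ATF4 itself had 935, 937 and 930.0 TPM in shMCART1, against 833, 825 and 800.5 TPM in shScramble, a rise of 0.19 ± 0.04 (SE, adjusted p = 0.00257), a call that ended under quantile normalization (0.05, adjusted p = 0.406). Of the 16 factors and feedback genes on the list 2 rose, ATF4 and ATF3, and 9 fell, with a median of -0.43. TRIB3, the pseudokinase that restrains ATF4, had 84.9, 90.0 and 97.5 TPM in shMCART1, against 179.9, 169.5 and 189.9 TPM in shScramble (-0.98 ± 0.08 (SE, adjusted p = 1.89e-05)). SESN2, a leucine sensor that holds back mTORC1, had 48.4, 53.5 and 61.2 TPM in shMCART1, against 113, 116 and 123 TPM in shScramble (-1.10 ± 0.11 (SE, adjusted p = 8.19e-05)). The shMCART1 mean was 50.5% of the shScramble mean for TRIB3 and 46.2% for SESN2, and the groups did not overlap. CHAC1, which degrades glutathione and whose promoter is shown above, had 21.9, 22.9 and 26.7 TPM in shMCART1, against 55.5, 55.8 and 58.4 TPM in shScramble (-1.22 ± 0.17 (SE, adjusted p = 0.000369)). The C/EBP factors CEBPB (-0.76) and CEBPG (-0.55), ATF5 (-0.62), NUPR1 (-0.84) and DDIT3, the death-promoting factor CHOP (-0.31), fell too. PPP1R15A, the phosphatase subunit that ends the response, had 107 TPM in shMCART1 against 106 TPM in shScramble and DDIT4 278 TPM in shMCART1 against 266 TPM in shScramble, and neither was called. Of the 13 upstream kinases and relay genes 0 rose and 5 fell by limma (OMA1 was lower at an unadjusted p under 0.05, 0.0459, but not called). With GC trends removed 1 was called, EIF2B4, a subunit of the exchange factor of eIF2 (-0.25 before removal), and under median-of-ratios scaling its call ended (-0.15, adjusted p = 0.0977).

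The secreted products of the response were all lower among those tested. Of 7 on the list 6 passed the filter and 6 fell, with a median of -0.80. GDF15, a cytokine that curbs appetite, had 12.2, 12.7 and 9.24 TPM in shMCART1, against 31.9, 27.5 and 27.0 TPM in shScramble (-1.28 ± 0.12 (SE, adjusted p = 5.3e-05)). INHBE, an activin subunit, had 10.9, 11.5 and 12.1 TPM in shMCART1, against 23.4, 23.8 and 27.5 TPM in shScramble (-1.05 ± 0.09 (SE, adjusted p = 2.49e-05)), and the metabolic hormone FGF21 had 1.11, 1.27 and 1.25 TPM in shMCART1, against 3.66, 3.20 and 3.81 TPM in shScramble (-1.04 ± 0.16 (SE, adjusted p = 0.00078)). STC2 (-0.48), ADM2 (-0.56) and VEGFA (-0.50) fell by less.

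Most tested amino acid transporters and cytosolic aminoacyl-tRNA synthetases fell. Of 16 amino acid transporters 13 fell and 0 rose, with a median of -0.46 against -0.07 for all genes. With GC trends removed 12 fell and 1 rose, and under median-of-ratios scaling 10 fell and 0 rose. SLC7A11, which imports cystine for glutathione, had 0.890, 1.04 and 1.09 TPM in shMCART1, against 3.04, 3.42 and 3.75 TPM in shScramble (-1.13 ± 0.11 (SE, adjusted p = 5.46e-05)). SLC1A4, a serine and alanine carrier, had 5.56, 5.41 and 6.08 TPM in shMCART1, against 11.9, 12.2 and 13.8 TPM in shScramble (-1.03 ± 0.12 (SE, adjusted p = 0.000151)), and SLC38A2, a sodium-coupled glutamine carrier, had 16.4, 18.4 and 19.9 TPM in shMCART1, against 30.9, 35.5 and 38.5 TPM in shScramble (-0.90). The 2 chains of the large neutral amino acid exchanger fell less, SLC7A5 by 0.56 and SLC3A2 by 0.41 on the log2 scale. Of 20 cytosolic aminoacyl-tRNA synthetases 14 fell and 1 rose, with a median of -0.28, or 11 and 2 with GC trends removed and 11 and 3 under median-of-ratios scaling. WARS1, for tryptophan, had 204, 207 and 202 TPM in shMCART1, against 339, 336 and 343 TPM in shScramble (-0.73 ± 0.03 (SE, adjusted p = 5.4e-07)). RARS1, for arginine (-0.64), IARS1, for isoleucine (-0.57), and GARS1, for glycine (-0.41), fell, and QARS1, for glutamine, was the member that rose (0.36, adjusted p = 0.000485). AARS1, whose window holds TGATGNAA, was not called at 282 TPM in shMCART1 against 290.0 TPM in shScramble.

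**Figure D3:**
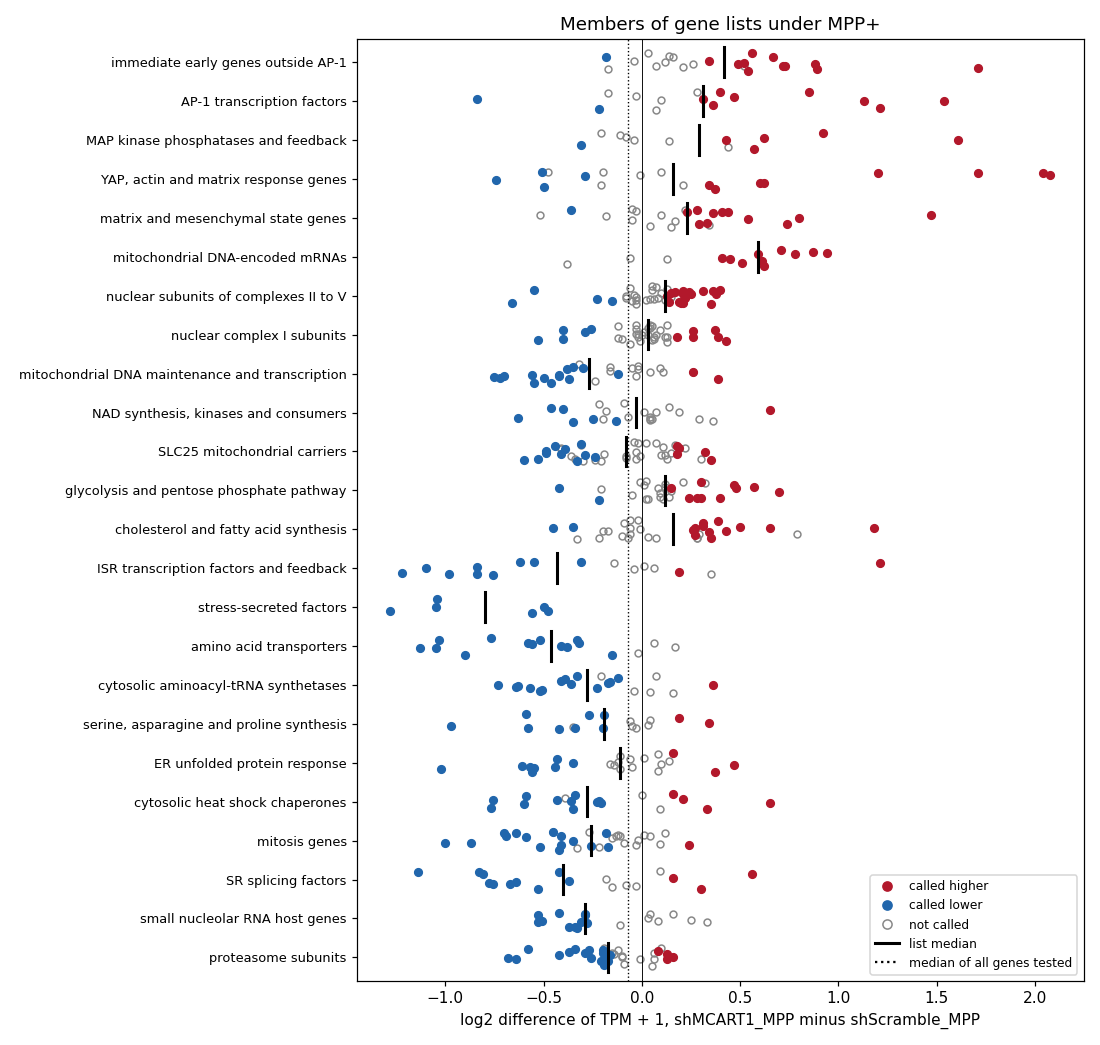
Log2 differences (shMCART1 minus shScramble under MPP+) of every tested member of 24 gene lists, called members filled in red (higher) or blue (lower), with the list median as a black bar and the median of all genes tested as a dotted line. Immediate early, AP-1 and mitochondrial DNA-encoded genes lie mostly to the right, amino acid response genes mostly to the left.

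Of 16 genes of serine, asparagine and proline synthesis 8 fell and 2 rose, or 6 and 4 under median-of-ratios scaling. PSPH, the last step of serine synthesis, had 32.1, 36.7 and 38.3 TPM in shMCART1, against 65.9, 70.1 and 76.9 TPM in shScramble (-0.97 ± 0.08 (SE, adjusted p = 3.43e-05)), and PSAT1, the step before it, fell by 0.59, whereas PHGDH, the entry enzyme, was not called at 728 TPM in shMCART1 against 752 TPM in shScramble. ASNS, asparagine synthetase, had 526, 519 and 539 TPM in shMCART1, against 646, 687 and 666 TPM in shScramble (-0.34 ± 0.04 (SE, adjusted p = 0.00016)). Cystathionase CTH (-0.58) and ASS1 of arginine synthesis (-0.42) fell, and glutamine synthetase GLUL rose (0.34). Of 18 folate enzymes 16 were tested, and 8 fell and 2 rose, or 4 and 2 under median-of-ratios scaling. Beside MTHFS, the mitochondrial 10-formyltetrahydrofolate dehydrogenase ALDH1L2 fell (-0.74, adjusted p = 0.00107), and SHMT2, the first mitochondrial step, was not called at 403 TPM in shMCART1 against 419.5 TPM in shScramble. In the methionine and polyamine list 8 of 17 fell and 4 rose. MAT2A and the polyamine-forming ODC1 (-0.59, adjusted p = 2.2e-05) fell, and SAT1, which marks polyamines for export, had 168, 149 and 128 TPM in shMCART1, against 76.7, 63.0 and 63.6 TPM in shScramble (1.11 ± 0.18 (SE, adjusted p = 0.000992)).

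Of 23 genes of the unfolded protein response of the endoplasmic reticulum 3 rose and 8 fell, or 6 and 8 under median-of-ratios scaling. The chaperones HSPA5, with 272, 237 and 214 TPM in shMCART1, against 172, 169 and 176 TPM in shScramble (0.47 ± 0.10 (SE, adjusted p = 0.00391)), and CALR (0.37) rose, while the transcription factors XBP1 (-0.61, adjusted p = 7.16e-06) and ATF6 (-0.57) and the cochaperone DNAJB9 (-1.02) fell. Of 20 cytosolic heat shock genes 18 were tested, 4 rose and 11 fell, with a median of -0.28, or 5 and 8 under median-of-ratios scaling. DNAJA1 (-0.77), HSPH1 (-0.76) and HSP90AA1 (-0.59) fell, as did the mitochondrial pair HSPD1 (-0.60) and HSPE1 (-0.35). HSPB1 rose (0.33), and so did HSPA1B (0.65), whose near-identical copy HSPA1A makes its reads uncertain. Of 32 proteasome subunits 16 fell and 4 rose, or 9 and 6 with GC trends removed and 9 and 7 under median-of-ratios scaling, and PSMA4 (-0.68, adjusted p = 0.000159) and PSMA3 (-0.64) were among those that fell.

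Messenger RNAs of the mitochondrial genome were higher in shMCART1. All 13 mRNAs, each for a core subunit of complex I, III, IV or V, passed the filter, and 10 rose and 0 fell by limma (1, MT-ND6, was lower at an unadjusted p under 0.05, 0.0433), with a median of 0.59 and of 0.74 with GC trends removed. MT-ND1 had 298, 277 and 284 TPM in shMCART1, against 151, 167 and 131 TPM in shScramble (0.94 ± 0.09 (SE, adjusted p = 5.3e-05)). MT-CO2 had 366, 329 and 379 TPM in shMCART1, against 194, 226 and 170.4 TPM in shScramble (0.87), and MT-CO3 had 140.5, 125 and 146 TPM in shMCART1, against 81.9, 79.6 and 77.0 TPM in shScramble (0.78). None of these overlapped between groups, nor did MT-CYB (0.59). MT-ND6, the mRNA read from the other strand, had 159, 167 and 249.6 TPM in shMCART1, against 213, 270.0 and 257 TPM in shScramble and was not called (-0.38), and neither were MT-ND3 (0.13) and MT-ND5 (-0.06). MT-ATP8 (0.71) and MT-ATP6 (0.41), and likewise MT-ND4L (0.61) and MT-ND4 (0.62), overlap in sequence, so the split of reads within each pair is uncertain. The 13 mRNAs together made up 0.434, 0.417 and 0.402% of TPM in shMCART1, against 0.270, 0.312 and 0.272% in shScramble (exact permutation p = 0.1, two-sided, the smallest possible). They made up 0.724 ± 0.0599% in oeMCART1 and 0.421 ± 0.0315% in oeNC (SD, n = 3 each), so shMCART1 stood at the oeNC level and shScramble below it.

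**Figure D4:**
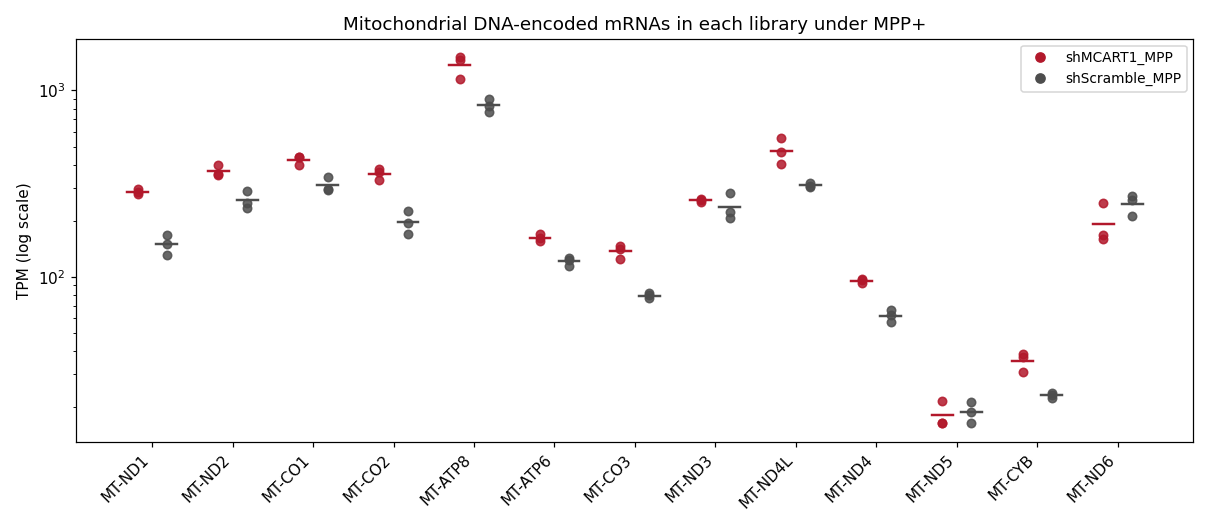
TPM (log scale) of the 13 mitochondrial DNA-encoded mRNAs in each shMCART1_MPP (red) and shScramble_MPP (grey) library, with lines at the means, in the order of the genes along the mitochondrial genome except MT-ND6 (other strand, last). The groups lie apart for 10 of the mRNAs, and for MT-ND3, MT-ND5 and MT-ND6 they overlap.

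Of 28 nuclear genes of mitochondrial DNA maintenance and transcription 14 fell and 2 rose, with a median of -0.27. With GC trends removed 7 fell and 2 rose, with a median of -0.09, and under median-of-ratios scaling 11 fell and 4 rose. LRPPRC, which stabilises mitochondrial mRNAs, had 19.1, 23.7 and 24.7 TPM in shMCART1, against 36.3, 38.5 and 36.3 TPM in shScramble (-0.70 ± 0.11 (SE, adjusted p = 0.000944)). The packaging and transcription factor TFAM (-0.56) and the exonuclease MGME1 (-0.55) also fell. The single-strand binding protein SSBP1 fell (-0.42, adjusted p = 5e-05), a call that ended with GC trends removed (-0.12, adjusted p = 0.165). The polymerase subunit POLG rose (0.26, adjusted p = 0.0111).

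Complexes II to V have 41 nuclear-encoded members on the list, of which 18 rose and 4 fell, with a median of 0.12, or 25 and 2 under median-of-ratios scaling. COX7A2 had 1407, 1419 and 1386 TPM in shMCART1, against 1072, 1128 and 1082 TPM in shScramble (0.36 ± 0.03 (SE, adjusted p = 4.07e-05)), and ATP5MC1, a proteolipid of the ATP synthase rotor, rose by a similar amount (0.40). Cytochrome c, CYCS, fell (-0.66, adjusted p = 0.00579), as did the stator subunit ATP5PB (-0.55). In complex I, 6 of the 37 nuclear subunits rose, NDUFA2 (0.43) and NDUFA1 (0.37) with them, and 5 fell, NDUFC2 (-0.40) with them, for a median of 0.03. Calls made up 29.7% of these subunits, against 35.1% of all genes. The counts were 11 higher and 4 lower under median-of-ratios scaling, and 11 and 2 with GC trends removed. Of 19 assembly factors 4 rose, with COA1 (0.33) and DMAC2 (0.37) first, and 6 fell, with TMEM126B (-0.65, adjusted p = 0.00037) first. These counts were 4 and 3 under median-of-ratios scaling and with GC trends removed alike.

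Of 24 genes that make or use NAD 22 were tested, and 31.8% were called, near the 35.1% of all genes. Here 1 rose and 6 fell, with a median of -0.03, and under median-of-ratios scaling 2 were higher and 1 lower, with a median of 0.07. QPRT, of the route from tryptophan, had 71.2, 74.5 and 66.7 TPM in shMCART1, against 44.8, 45.6 and 44.0 TPM in shScramble (0.65 ± 0.06 (SE, adjusted p = 4e-05)). SARM1, the NAD+ hydrolase of axon breakdown, had 9.91, 10.8 and 11.2 TPM in shMCART1, against 16.2, 17.9 and 16.9 TPM in shScramble (-0.63 ± 0.07 (SE, adjusted p = 0.000107)). The groups stood apart in both, and SARM1 was the 1 member called lower with GC trends removed. NAMPT, the salvage enzyme, was not called at 23.0 TPM in shMCART1 against 24.2 TPM in shScramble. Of 44 SLC25 carriers 42 were tested, and 5 rose (11.9%) and 11 fell (26.2%), shares near the 11.6% and 23.5% of all genes, with a median of -0.08. Under median-of-ratios scaling 11 were higher and 8 lower, with a median of 0.02, and with GC trends removed 6 and 5. SLC25A32, a folate and flavin carrier, had 7.55, 6.89 and 8.13 TPM in shMCART1, against 11.4, 12.3 and 12.2 TPM in shScramble (-0.60 ± 0.10 (SE, adjusted p = 0.00117)), a larger fall than that of the targeted SLC25A51, and SLC25A13, of the aspartate shuttle, fell by 0.53. The citrate carrier SLC25A1 rose (0.32). Of 33 genes of the citric acid cycle and NADH shuttles 7 rose (21.2%) and 8 fell (24.2%), against 11.6% and 23.5% of all genes, with a median of -0.04. Under that scaling 9 were higher and 3 lower, with a median of 0.06, and with GC trends removed 9 and 4. Malic enzyme ME2 averaged 12.2 ± 0.550 TPM in shMCART1 and 22.6 ± 1.25 TPM in shScramble (SD, n = 3 each), a difference of -0.83 ± 0.08 (SE, adjusted p = 5e-05), the NAD+-linked IDH3A (-0.61) and the lipoamide dehydrogenase DLD (-0.67) fell, and MDH2 rose (0.29).

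Of 30 glycolysis and pentose phosphate genes 29 were tested, and 10 rose and 2 fell, with a median of 0.12, or 16 and 1 under median-of-ratios scaling. The glucose transporter SLC2A3 had 21.2, 19.5 and 22.9 TPM in shMCART1, against 13.2, 12.5 and 12.3 TPM in shScramble (0.70 ± 0.12 (SE, adjusted p = 0.00149)), and ENO2 (0.57), TKT (0.47) and ALDOC (0.48) rose. LDHA, which turns pyruvate to lactate, was not called at 357 TPM in shMCART1 against 335 TPM in shScramble. Of 33 cholesterol and fatty acid genes 32 were tested, and 12 rose and 2 fell, with a median of 0.16. INSIG1, which retains the sterol sensor in the endoplasmic reticulum, had 70.7, 63.2 and 60.2 TPM in shMCART1, against 29.8, 27.8 and 26.3 TPM in shScramble (1.18 ± 0.14 (SE, adjusted p = 0.000198)). Fatty acid synthase FASN (0.50) and the sterol enzymes MVD (0.43) and DHCR7 (0.39) rose. Among 20 HIF-1 targets outside glycolysis 19 were tested, and 3 rose and 3 fell (31.6% called, near the 35.1% of all genes). With GC trends removed 4 were called higher and 1 lower. NDRG1 had 84.5, 83.7 and 84.3 TPM in shMCART1, against 51.4, 45.3 and 43.9 TPM in shScramble (0.83 ± 0.09 (SE, adjusted p = 9.61e-05)).

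The ubiquitin ligase MDM2 had 5.26, 6.07 and 6.77 TPM in shMCART1, against 10.7, 12.4 and 14.3 TPM in shScramble (-0.93 ± 0.13 (SE, adjusted p = 0.000379)), and the cell cycle inhibitor CDKN1A had 16.7, 17.3 and 17.6 TPM in shMCART1, against 30.6, 28.1 and 29.6 TPM in shScramble (-0.74 ± 0.10 (SE, adjusted p = 0.000269)). SESN1 (-0.80) and TNFRSF10B, a death receptor (-0.47), fell, GADD45A rose (0.47), and the death effector BAX was not called at 139 TPM in shMCART1 against 155 TPM in shScramble. Of 32 mitosis genes 31 were tested, and 15 fell and 1 rose, or 7 and 2 with GC trends removed and 10 and 3 under median-of-ratios scaling. KIF11, a spindle motor (-0.87), and cyclin A2, CCNA2 (-0.70), fell, as did ECT2, needed for cytokinesis, with 4.24 TPM in shMCART1 against 9.40 TPM in shScramble, and PLK1, at 128 TPM in shMCART1 against 119.8 TPM in shScramble, was not called.

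Of 18 SR splicing factors and their kinases 10 fell and 3 rose, with a median of -0.40, or 10 and 4 with GC trends removed. SRSF1 had 34.8, 34.8 and 49.5 TPM in shMCART1, against 69.0, 95.1 and 102 TPM in shScramble (-1.14 ± 0.17 (SE, adjusted p = 0.000656)), and SRSF6 (-0.81), SRSF5 (-0.76) and TRA2A (-0.64) fell, while the kinase CLK3, which phosphorylates these factors, rose (0.56). Of 19 small nucleolar RNA host genes 18 were tested, and 11 fell and 0 rose by limma (1, SNHG9, was higher at an unadjusted p under 0.05, 0.0358), with a median of -0.29. With GC trends removed 10 fell and 2 rose, with a median of -0.18, and under median-of-ratios scaling 9 fell and 1 rose. GAS5 had 2415, 2322 and 2452 TPM in shMCART1, against 3126, 3147 and 3346 TPM in shScramble (-0.42 ± 0.04 (SE, adjusted p = 2.97e-05)), and ZFAS1 (-0.53) and SNHG32 (-0.53) fell. Of 22 translation factors 9 fell and 3 rose, or 7 and 5 under median-of-ratios scaling, with EIF5 (-1.15) and ETF1 (-0.74) down beside EIF4EBP2 and the elongation factor EEF2 up (0.38). Of 78 cytosolic ribosomal proteins 15 rose and 14 fell (37.2% called, near the 35.1% of all genes). However, 34 were called higher and 6 lower under median-of-ratios scaling, and 23 and 3 with GC trends removed. Of 78 mitochondrial ones 10 rose (12.8%) and 23 fell (29.5%), against 11.6% and 23.5% of all genes. However, 17 were higher and 15 lower under median-of-ratios scaling, and 18 and 15 with GC trends removed.

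Of 23 adrenergic transcription factors 14 were tested, and 4 rose (28.6%) and 0 fell by limma (1, MEIS2, was lower at an unadjusted p under 0.05, 0.0183). SOX4 had 52.5, 48.9 and 45.8 TPM in shMCART1, against 27.1, 25.8 and 24.9 TPM in shScramble (0.89 ± 0.14 (SE, adjusted p = 0.00089)), KLF7 (0.77) and GATA2 (0.35) rose, and HAND2, at 3.19 TPM in shMCART1 against 2.59 TPM in shScramble, was not called. Of 18 genes of catecholamine synthesis and transport 10 were tested and 0 were called by limma (0 at an unadjusted p under 0.05, and 1 called higher under median-of-ratios scaling), and TH and DDC did not pass the filter. Among 22 synuclein and Parkinson disease genes 20 were tested, and 3 rose and 3 fell (30.0% called, near the 35.1% of all genes), or 5 and 1 under median-of-ratios scaling. SNCG, a synuclein of peripheral neurons, had 8.90, 9.74 and 8.10 TPM in shMCART1, against 3.75, 3.35 and 3.76 TPM in shScramble (1.10 ± 0.11 (SE, adjusted p = 5.98e-05)), and tau, MAPT, rose (0.46). PINK1, a kinase of mitophagy, was not called at 39.1 TPM in shMCART1 against 37.5 TPM in shScramble.

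Antioxidant, replication and cytoskeletal lists had calls in both directions, as had all genes tested, of which 11.6% were called higher and 23.5% lower. Of 32 genes of the NRF2 and glutathione list 30 were tested, and 5 rose (16.7%) and 10 fell (33.3%), or 6 and 7 under median-of-ratios scaling. NQO1, a quinone reductase, had 14.6, 17.1 and 15.5 TPM in shMCART1, against 24.4, 25.1 and 25.1 TPM in shScramble (-0.63 ± 0.07 (SE, adjusted p = 9.61e-05)), and NFE2L2, which encodes NRF2, fell (-0.50, adjusted p = 0.00407). Heme oxygenase HMOX1 (0.44), peroxiredoxin PRDX1 (0.26) and the metallothionein MT2A (0.34) rose. Of 34 DNA replication genes 7 rose (20.6%) and 14 fell (41.2%), or 9 and 12 under median-of-ratios scaling. The licensing factor CDT1 (0.72) and the helicase subunit MCM5 (0.48) were up and the clamp PCNA (-0.42) and its loader RFC4 (-0.76) down. Of 32 genes of axon growth and neuronal cytoskeleton 21 were tested, and 8 rose (38.1%) and 4 fell (19%). Neuronal tubulin TUBB3 had 16.7, 15.1 and 14.8 TPM in shMCART1, against 9.95, 7.59 and 8.57 TPM in shScramble (0.77 ± 0.09 (SE, adjusted p = 0.000159)), and TUBB2B (0.50) and the growth cone proteins BASP1 (0.65) and GAP43 (0.48) rose. Of 29 vesicle genes 16 were tested, and 2 rose (12.5%), SCG5 (0.65) and RAB3A (0.55), and 5 fell (31.2%), among them synaptophysin SYP (-0.38). Synaptophysin and the granins CHGA (-0.55) and CHGB (-0.62) are dense-core or synaptic vesicle proteins. Among 23 genes of mitochondrial protein import 3 rose and 10 fell, but 6 were higher and 6 lower under median-of-ratios scaling and 3 and 5 with GC trends removed, with TIMM44, which anchors the import motor, at 47.4, 57.0 and 60.0 TPM in shMCART1, against 77.0, 77.9 and 78.2 TPM in shScramble (-0.50 ± 0.07 (SE, adjusted p = 0.000565)). Of 20 mitochondrial chaperones and proteases 3 rose and 7 fell (50% called, against 35.1% of all genes). With GC trends removed 4 were higher and 5 lower, and under median-of-ratios scaling 3 and 5. Of 17 mitochondrial aminoacyl-tRNA synthetases 2 rose and 6 fell (47.1% called), or 1 and 6 with GC trends removed and 3 and 5 under that scaling. Of 17 genes of iron-sulfur cluster assembly 2 rose and 6 fell (47.1% called), or 3 and 5 with GC trends removed and 2 and 6 under that scaling. Of 20 genes of fatty acid beta-oxidation 4 rose (20%) and 5 fell (25%), against 11.6% and 23.5% of all genes. Of 33 autophagy, mitophagy and lysosome genes 5 rose and 5 fell (30.3% called, near the 35.1% of all genes). Of 16 genes of mitochondrial fusion, fission and biogenesis 15 were tested, and 0 rose and 5 fell by limma (1 was higher at an unadjusted p under 0.05, and 1 was called higher under median-of-ratios scaling). Of 18 BCL2 family genes 15 were tested, and 3 rose and 2 fell. In each of these last 2 lists 33.3% of the tested members were called, near the 35.1% of all genes.

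Whether the knockdown effect differed with and without the toxin was tested as the difference of the 2 effects over the 13856 genes in both tables. It was called for 635 genes (4.58%), 283 with a higher effect under MPP+ (2.04%) and 352 with a lower one (2.54%). The effects followed GC content in untreated cells too (Spearman correlation 0.786 across genes), and their difference followed it in the opposite sense (-0.521). In RHOB the effect was 2.04 with MPP+ and 0.21 without, a difference of 1.82 ± 0.23 (SE, adjusted p = 0.000185). In JUN it was 1.54 with MPP+ and -0.08 without, a difference of 1.62 ± 0.21 (SE, adjusted p = 0.000304). INSIG1 (1.18 with MPP+ and -0.55 without), KLF6 (0.88 and -0.56) and SOX4 (0.89 and -0.57) had effects of opposite sign. Among the stress factors, TRIB3 (-0.98 with MPP+ and 0.34 without, a difference of -1.32 ± 0.14 (SE, adjusted p = 6.99e-05)), NUPR1 (-0.84 and 0.69) and SESN2 (-1.10 and 0.23) had the lower effect with MPP+, as did GDF15, for which all 6 untreated libraries lay under 1 TPM as deposited, in a table normalized separately. At such levels the pseudocount understates any change, so whether GDF15 differed in untreated cells cannot be told. Of the 13 mitochondrial mRNAs 9 had a higher effect with MPP+, MT-ND1 with 0.94 and -0.09. The calls of MT-ND1, MT-CO2 and MT-CO3 were kept in every fit tried, and those of MT-CYB, MT-ATP6, MT-ATP8, MT-ND4L and MT-ND4 ended with library weights and when only the hairpin groups were fitted. SPARC (1.47 with MPP+ and 1.55 without), SNCG (1.10 and 0.92), IARS1 (-0.57 and -0.56), SLC38A2 (-0.90 and -0.89) and SLC25A51 itself (-0.49 and -0.56) showed no called difference. The count of called differences depended on the fit. It was 69 with library weights and 132 when only the hairpin groups were fitted. It was 2589 without untreated shMCART1 replicate 2, and 276 to 420 without any 1 MPP+ library except shMCART1 replicate 3. Without untreated shMCART1 replicates 1 and 3 and untreated shScramble replicate 2, each left out alone, it was 383, 361 and 289.

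**Figure D5:**
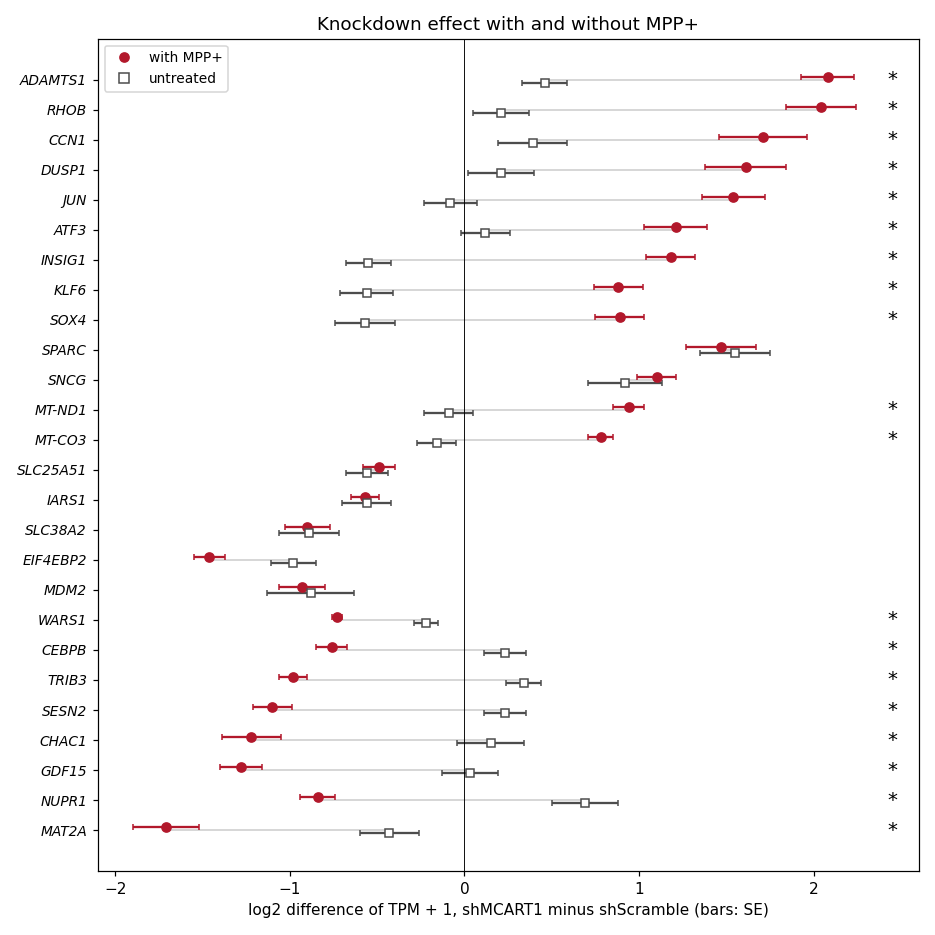
Log2 difference (shMCART1 minus shScramble, with SE) of 26 genes with MPP+ (red circles) and in untreated cells (open squares), with a star where the difference between the 2 effects was called. RHOB, JUN and ATF3 move with MPP+ and stay near 0 without, TRIB3, SESN2 and NUPR1 lie below 0 with MPP+ and above 0 without, and SPARC, SNCG and SLC38A2 have like values in both. GDF15 lies below 0 with MPP+. Its untreated value near 0 is from libraries all under 1 TPM, where the pseudocount keeps differences small.

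The overexpression arm under MPP+ was set beside the knockdown. It shares no library with it, and the 4 groups share 1 estimate of the spread. Of the 14142 genes 8854 were called in oeMCART1 against oeNC (62.6%), 6747 higher (47.7%) and 2107 lower (14.9%), with a median of 0.25, while median-of-ratios scaling moved that median to -0.00 and the counts to 4005 higher and 4154 lower. Its differences followed GC content in the sense opposite to the knockdown (Spearman correlation -0.602 across genes). Of the 1640 genes called higher in shMCART1, 59.1% were called lower and 7.56% higher in oeMCART1, and of the 3323 called lower, 89.1% were called higher and 1.38% lower. Under median-of-ratios scaling of both comparisons, 78.1% of the genes called higher in shMCART1 were called lower in oeMCART1, and 78.0% of those called lower were called higher. ADAMTS1 had 23.0, 21.5 and 20.8 TPM in oeMCART1, against 78.8, 57.7 and 45.5 TPM in oeNC, and GDF15 had 52.5, 52.9 and 64.2 TPM in oeMCART1, against 21.8, 19.4 and 24.0 TPM in oeNC. INSIG1 averaged 6.63 TPM in oeMCART1 and 43.2 TPM in oeNC, and MAT2A averaged 91.6 TPM in oeMCART1 and 31.0 TPM in oeNC. The mean of oeNC lay between those of shMCART1 and shScramble in 28 of the 30 leading genes and in 42.8% of all called genes. Of the 13 mitochondrial mRNAs, 10 of which were higher in shMCART1, 9 were higher and 2 lower in oeMCART1. MT-CO3 averaged 189 TPM in oeMCART1 and 127 TPM in oeNC, and MT-ATP6 averaged 495 TPM in oeMCART1 and 172 TPM in oeNC.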

How the data were processed

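Poly(A) RNA of SH-SY5Y cells was sequenced from strand-specific libraries, per the labels' protocols. Values were TPM per gene, transcript abundances that the authors scaled to a fixed total per library and deposited in 1 table for MPP+-treated and 1 for untreated cells. No aligner or counter is named in the labels, and the submitters' processing notes name the builds GRCh38, GRCm38 and mm10 with no role. Gene identifiers were human. TPM hold no depth, so no counting interval could be given and the precision rests on the 3 libraries of each group. Groups were taken from the labels.

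For treated cells 42 of 36783 entries held no gene identifier or values and were left out. Genes that reached 1 TPM in at least 3 of the 6 hairpin libraries were tested as log2(TPM + 1), a pseudocount that understates the change of low genes. The test was limma 3.58.1 in R 4.3.3 on all 12 MPP+ libraries, which share 1 estimate of the spread on 8 residual degrees of freedom, with Benjamini-Hochberg adjustment over all genes tested and calls under 0.05. The difference between effects was a contrast of within-table differences, fitted over all 24 libraries. Single values were tested with two-sided exact permutation. GC content was that of the transcripts, and a spline of 5 degrees of freedom gave its trend per library. Scripts were tested on simulated data. Other software was Python 3.11.15 with pandas 2.3.3, numpy 2.4.6, scipy 1.17.1 and matplotlib 3.10.9.

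Named were SLC25A51 and the leading genes, up to 15 in each direction with the largest called difference among genes with a gene symbol, a mean of 5 TPM or more where higher, and no overlap. Also named were, of each list, its preset key members and up to 4 called members with the smallest p. Where 5 or fewer members of a list moved one way, some of those were named after their values were seen, as were members held up by a motif. Some list members and lists are not reported here. The members and lists were chosen with earlier results of these data known. The alternatives were another pseudocount, filter or scaling, quantile normalization, library weights, robust variance moderation, the replicate number as a block, GC trends removed, the compared groups fitted alone, and each library left out.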

Additional observations from a re-analysis of the deposited data

Results flagged for a closer look

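The knockdown effect differed with and without MPP+, by limma at an adjusted p under 0.05, for 68 of the genes named above. The number after each gene is the effect with MPP+ minus the effect without, on the log2(TPM + 1) scale. Of the 68 calls 23 held in every alternative fit and without each library in turn. Higher with MPP+ among these 23 were RHOB (1.82), INSIG1 (1.73), ADAMTS1 (1.62), JUN (1.62), SOX4 (1.46), KLF6 (1.44), DUSP1 (1.40), MT-ND1 (1.03), MT-CO2 (0.98) and MT-CO3 (0.93). Lower with MPP+ among them were NUPR1 (-1.53), CHAC1 (-1.36), SESN2 (-1.33), NCOA5 (-1.32), TRIB3 (-1.32), MAT2A (-1.27), ATP6V0E2-AS1 (-1.25), INHBE (-1.10), CDKN1A (-1.05), SLC1A4 (-0.86), SLC7A5 (-0.73), SLC3A2 (-0.59) and SNHG32 (-0.49).

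The other 45 calls ended in at least 1 alternative. Of the 68, 38 ended with library weights, 31 when only the hairpin groups were fitted, 20 without some 1 library and 9 with GC trends removed. Higher with MPP+ among mitochondrial mRNAs with such a call were MT-ATP8 (0.98), MT-ND4 (0.98), MT-CYB (0.83), MT-ND4L (0.82) and MT-ATP6 (0.76). Higher among the other genes were CCN1 (1.32), ANKRD1 (1.27), SAT1 (1.15), ATF3 (1.10), PIM1 (1.07), SGK1 (0.99), BHLHE40 (0.90), HSPA5 (0.88), GAP43 (0.80), NAMPT (0.77), ZFP36 (0.71), TUBB3 (0.70), HSPA1B (0.60), DUSP10 (0.59), GLUL (0.46), ACTG1 (0.43), COA1 (0.37), PRDX1 (0.30), ATF4 (0.29) and CALR (0.28). Lower were GDF15 (-1.31), FGF21 (-1.02), CEBPB (-0.99), ACTA2 (-0.83), MTHFS (-0.82), JDP2 (-0.79), ADM2 (-0.72), NQO1 (-0.71), PSPH (-0.65), SARM1 (-0.65), SYP (-0.62), WARS1 (-0.51), SHMT2 (-0.48), ZFAS1 (-0.47), TIMM44 (-0.45), CTH (-0.42), PHGDH (-0.41), XBP1 (-0.41), EIF2B4 (-0.39) and ASS1 (-0.36). The 9 that ended with GC trends removed were ASS1, COA1, DUSP10, GLUL, MT-ATP6, MT-ATP8, MT-ND4L, PHGDH and TIMM44. NAMPT, PHGDH and SHMT2 were not called under MPP+ itself. GDF15 lay under 1 TPM in every untreated hairpin library, where the pseudocount understates any change. The part of GC content in these differences was not tested beyond that removal.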

How the results depend on the processing

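SLC25A51 stayed lower in shMCART1 and called in every alternative (-0.58 to -0.38), with -0.49 under the replicate block, and -0.58 to -0.44 without 1 library. The difference in mitochondrial share was 0.125 to 0.147 percentage points without 1 library. Called genes numbered 3469 to 4605 without 1 library, 1183 to 1429 higher and 2211 to 3184 lower, the lowest of these without shScramble replicate 3. Higher calls were 2549 under median-of-ratios scaling, and lower calls 2077 with GC trends removed (2023 with the replicate block too). In oeMCART1 median-of-ratios scaling gave 4005 higher and 4154 lower calls, quantile normalization gave 4040 higher and 3840 lower, and higher calls were 3595 with GC trends removed (3546 with the block too). Without 1 library these calls were 8039 to 8535, 6150 to 6629 higher and 1872 to 2024 lower. The difference between effects was called for 1145 genes with the replicate block (521 higher, 624 lower), 1114 with GC trends removed (490 and 624), 1387 with both (633 and 754), 69 with library weights (28 and 41) and 132 in the hairpin groups alone (65 and 67). Higher differences were 188 with no filter, and lower ones 568 under quantile normalization. Without 1 library it was called for 276 to 2589 genes, 124 to 1735 higher and 152 to 854 lower. The replicate numbers were not taken as pairs in the main fit. Across genes, same-numbered shMCART1 and shScramble libraries deviated from their group means with correlations of 0.021, -0.019 and 0.043. Yet 2 of 3 shMCART1 libraries correlated best with their own number. For 8 of the 15 leading rises, moreover, library 1 was the highest in shMCART1, in shScramble and in oeNC alike. With the number as a block 4691 genes were called, against 4963. What links same-numbered libraries in such genes was not tested.

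Signs turned in genes that were not called. Under median-of-ratios scaling AARS1 was 0.06, FN1 0.05, MT-ND5 0.04, NAMPT 0.03, PHGDH 0.05 and SHMT2 0.04. Under quantile normalization FN1 was 0.03, MT-ND5 0.03 and NAMPT 0.02. With GC trends removed, with or without the block, DDIT4 was -0.00, FN1 0.19, MT-ND5 0.10, NAMPT 0.25 and PPP1R15A -0.05. Without 1 library MARS1 ranged from -0.35 to 0.01, MT-ND5 from -0.18 to 0.03 and PPP1R15A from -0.03 to 0.07. The causes were not tested. With 3 libraries a group and no depth, differences in genes of a few TPM were the least certain.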
